A study of Mus musculus with 69 samples.

Results

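The genes described here are 42 genes of the endoplasmic reticulum (ER) stress response and the integrated stress response, followed in cultured mouse vascular cells exposed for 24 h to stressors of the diabetic and hypertensive milieu. They were chosen by name as known sensors, transcription factors, targets, chaperones, folding enzymes and degradation factors of these pathways, by a rule that uses no measured value, although earlier results of these data were known when the list was drawn up, and all 42 were present among the 56953 gene identifiers of the count tables. The series holds 69 poly(A) RNA-Seq libraries in 12 groups and 18 sets, a set being the parallel dishes of one primary culture. WT VSMC were vascular smooth muscle cells grown from the aorta of male C57BL/6 mice with an intact Egfr gene (sets 1 to 4). KO VSMC were aortic smooth muscle cells of male C57BL/6 mice in which floxed Egfr, the epidermal growth factor receptor gene, was deleted by Cre under the SM22 promoter, which is active in the smooth muscle lineage (sets 5 to 8). EC were CD45-/CD31+ cells enriched from the hearts of male C57BL/6 mice, all of WT genotype by the labels (sets 9 to 18). By the animal numbers in the labels, EC sets 9 and 10 came from the animals of WT VSMC sets 1 and 2, EC sets 15 and 16 from the animals of KO VSMC sets 7 and 6, and EC sets 17 and 18 from a single animal. The labels thus give EC of sets 15 and 16 as WT although smooth muscle cells of the same animals are given as deleted for Egfr. Each set was split over Control medium, HG + FFA (20 mM glucose with free fatty acids, 100 µM by the labels, while the study's text gives that concentration for oleate and again for palmitate), AII + NA (30 nM angiotensin II with 300 nM of a catecholamine that the labels call epinephrine and the study's text norepinephrine) and ALL, which combined the 4 agents. All dishes, Control included, were serum-starved for 24 h before the exposure. The numbers of libraries in the order Control, HG + FFA, AII + NA and ALL were 4, 4, 4 and 4 for WT VSMC, 4, 4, 4 and 3 for KO VSMC and 9, 10, 9 and 10 for EC. The 3 stressor groups of a cell population share its Control libraries.

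The ER is the site where secreted and membrane proteins fold. When unfolded proteins accumulate there, 3 sensors in its membrane respond: IRE1 (gene Ern1) splices the mRNA of the transcription factor XBP1, ATF6 is cleaved into an active transcription factor, and PERK (gene Eif2ak3) phosphorylates the translation factor eIF2alpha. That phosphorylation is shared with kinases that sense amino acid shortage, haem shortage and viral RNA, which is why the common output is called the integrated stress response. It lowers general protein synthesis while the mRNA of ATF4 is translated more, and ATF4 then raises genes for amino acid supply and, with CHOP (gene Ddit3), genes that feed back on the response or take part in cell death. XBP1 and cleaved ATF6 raise chaperones, disulfide isomerases and the machinery that removes misfolded proteins. In vascular cells, saturated fatty acids, high glucose and angiotensin II have each been described as triggers of parts of this response. Splicing of Xbp1, cleavage of ATF6 and phosphorylation of eIF2alpha are not seen in gene counts, so the values below are total mRNA levels.

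Promoter windows of 300 bases (250 before to 50 after the start of transcription, RefSeq, GRCm38.p6) were matched for 37 of the 42 genes. The ER stress response element ERSE was searched on both strands as CCAAT, 9 bases of any kind and CCACG, and lay in the windows of 8 of the 37 genes (21.6%), against 0.137% of the 27025 genes with a window. Its variant ERSE-II, searched as ATTGG, 1 base of any kind and CCACG on both strands, lay in 2 of the 37 (5.41%, against 0.0444% of all these genes). The core of the C/EBP-ATF response element bound by ATF4, searched as TGATG, 1 base of any kind and AA on both strands, lay in 6 of the 37 (16.2%, against 4.51%). A match describes these letters in these windows and is neither a bound site nor a cause, and no match says only that the letters are not there. In the stretches below the matched element is in capitals, each read 5′ to 3′ on the strand of its gene. The stretches are of some genes called in the fits and of Herpud1 and Asns, which the main fits did not call. They cover Hspa5 (chr2:34772005-34772063, + strand), Calr (chr8:84847055-84847113, - strand), Pdia6 (chr12:17266471-17266529, + strand) and Creld2 (chr15:88819500-88819558, + strand), which carry ERSE, Herpud1 (chr8:94386357-94386407, + strand), which carries ERSE-II, and Vldlr (chr19:27216800-27216847, + strand), Atf3 (chr1:191183416-191183463, - strand) and Asns (chr6:7693210-7693252, - strand), which carry the ATF4 core.
Hspa5: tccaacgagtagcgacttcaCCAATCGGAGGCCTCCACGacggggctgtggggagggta
Calr: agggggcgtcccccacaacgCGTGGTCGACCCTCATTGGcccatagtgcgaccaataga
Pdia6: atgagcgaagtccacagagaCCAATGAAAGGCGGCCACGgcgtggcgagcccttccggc
Creld2: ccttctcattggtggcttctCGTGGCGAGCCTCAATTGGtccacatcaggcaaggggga
Herpud1: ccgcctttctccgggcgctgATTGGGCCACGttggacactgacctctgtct
Vldlr: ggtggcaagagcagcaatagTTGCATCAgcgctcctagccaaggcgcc
Atf3: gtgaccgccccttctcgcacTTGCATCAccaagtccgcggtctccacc
Asns: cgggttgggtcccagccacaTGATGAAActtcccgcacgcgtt
In Hspa5, Pdia6, Herpud1 and Asns the element reads along the gene, and in Calr, Creld2, Vldlr and Atf3 it lies on the opposite strand. Herpud1 also carries the ATF4 core, which does not overlap its ERSE-II.

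Library totals were 17166133 to 43240489 counts in EC, 23626664 to 37801299 in WT VSMC and 23238979 to 35120866 in KO VSMC, and the 42 genes took 0.559 to 1.18% of the counts of a library. Levels are given as FPM, counts per 1000000 counts of a library after TMM scaling over all libraries. Egfr was at 226 to 500 FPM in WT VSMC and at 0.53 to 2.00 FPM in KO VSMC sets 6 to 8, but at 33.7 to 40.2 FPM in the 3 libraries of KO VSMC set 5. EC sets 9, 11 and 13 also stood apart. Egfr was at 126 to 168 FPM in their 12 libraries, against 2.16 to 46.9 FPM in the 26 libraries of the other EC sets. Of these, the sets from the animals that also gave KO VSMC were at 7.47 to 12.2 FPM (set 15) and 2.16 to 3.11 FPM (set 16), and the other 5 sets at 10.2 to 46.9 FPM. The sum of 8 endothelial markers was 44.5 to 130 FPM in sets 9, 11 and 13, against 486 to 4576 FPM in the other EC sets and 0.65 to 64.7 FPM in WT VSMC. The upper end of that last range came from WT VSMC set 2 alone, whose 4 libraries were at 28.8 to 64.7 FPM, against 0.65 to 9.46 FPM in sets 1, 3 and 4. In EC sets 9, 11 and 13 the sum of 6 fibroblast markers was 5476 to 23684 FPM, against 764 to 9038 FPM in the other EC sets and 7774 to 24888 FPM in WT VSMC. The defining smooth muscle marker Myh11 was at 2.995 to 13.5 FPM in WT VSMC, Acta2 at 222 to 1846 FPM. In such bulk samples fewer cells of a type and less RNA per cell cannot be told apart.

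In Control dishes the 42 genes spanned a wide range of levels per exonic length. In WT VSMC the disulfide isomerase gene P4hb was highest at 420 ± 42.7 FPM per kb of exon (SD, n = 4), followed by Atf5 at 296 ± 30.2, the lectin chaperone gene Calr at 270 ± 50.3, Pdia3 at 262 ± 40.6 and the ER chaperone gene Hspa5 (BiP) at 166 ± 24.4. The ranges of Atf5, Calr and Pdia3 overlapped, so their order is not resolved by these libraries, whereas the lowest P4hb library (360) lay above the highest of those genes (338). Hspa5, Pdia3 and P4hb share exonic bases with overlapping genes, by the percentages given below. How reads there were counted is not known here, which limits the levels per kb. The amino acid transporter gene Slc7a3 was lowest at 0.45 ± 0.22 FPM per kb. The sensors were expressed at a low level, Atf6 at 5.31 ± 1.38, Eif2ak3 at 4.85 ± 0.80 and Ern1 at 4.65 ± 1.12 FPM per kb, with overlapping ranges. In KO VSMC and EC P4hb was likewise highest, followed by Calr and Pdia3. The order of Calr and Pdia3 was not resolved there either: in KO VSMC their ranges overlapped, and in EC the means of 179 and 176 FPM per kb became 143 and 170 without set 13.

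**Figure D1:**
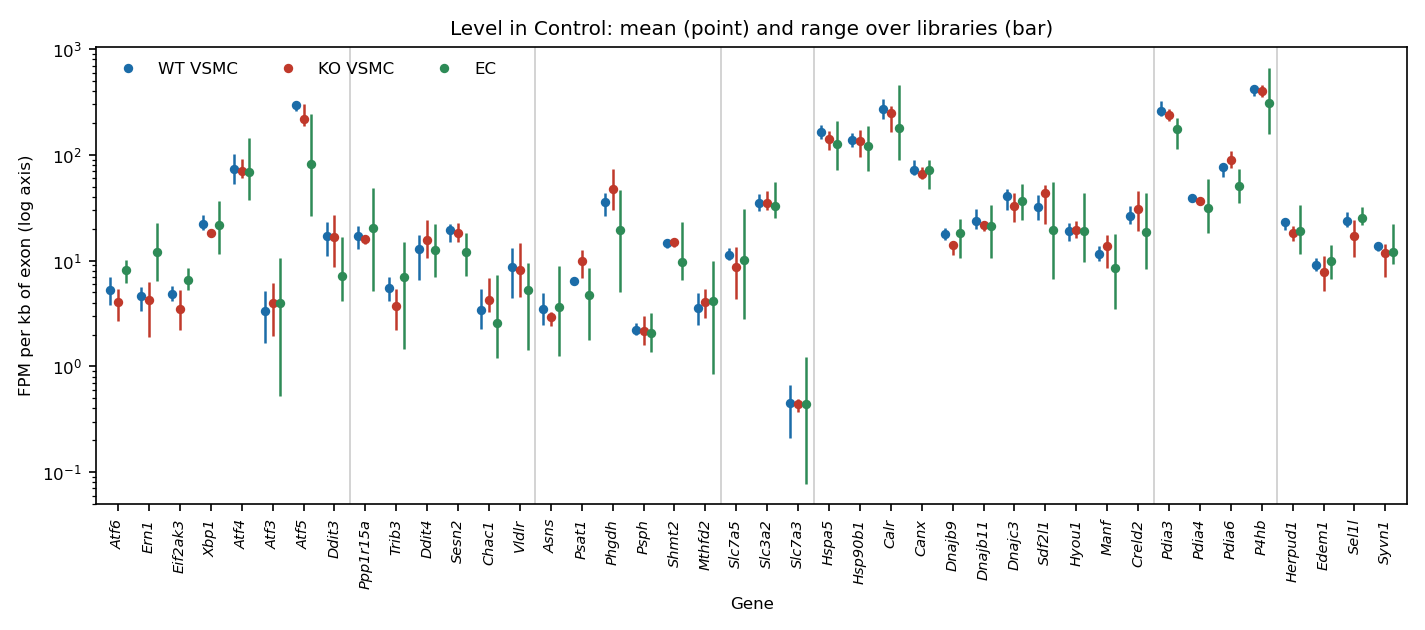
Level of each of the 42 genes in Control dishes, in FPM per kb of exon on a log axis, with the mean as a point and the range over libraries as a bar (WT VSMC n = 4, KO VSMC n = 4, EC n = 9). P4hb lies highest in all 3 cell populations and Slc7a3 lowest.

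Across the 9 comparisons of a stressor with Control, 11 of the 42 genes fell in at least 1 comparison, giving 24 calls, and none of the 42 rose in these fits. In single comparisons with HG + FFA or ALL, 0.103 to 3.53% of all genes tested were called lower and 0.279 to 3.92% higher. The share of all genes called in at least 1 of the 9 is not given here. Calls are edgeR's quasi-likelihood test at a Benjamini-Hochberg adjusted p (FDR) under 0.05 over all genes tested, with the set as a block; all 42 genes passed the filter on low counts in each fit. The remaining 31 genes passed in none of the 9. All 24 calls came from HG + FFA or ALL, the 6 comparisons in which glucose and fatty acids were present, and 20 genes had a negative log2 fold change (log2FC) in each of those 6, against 5 genes that were positive in each. These are 47.62% and 11.9% of the 42 genes. Of the 15880 genes tested in all 3 populations, 14.99% were negative in each of the 6 and 14.37% positive. HG + FFA and ALL share the Control libraries of a population, so the signs within a population are not independent. Without the set as block none of the 42 genes passed in any of the 9. Other settings called genes of serine and asparagine synthesis higher: without a filter on low counts Asns passed in EC with HG + FFA (0.34, log2 scale, 0.933% of all genes higher) and Asns and Phgdh passed with ALL (0.43 and 0.30, 0.936%), although with HG + FFA both genes were above Control in 4 and below it in 5 of 9 EC sets. Phgdh also passed as higher in WT VSMC with ALL, by DESeq2 (5.57% of all genes higher), without the filter (2.75%) and in the fit of only the 2 groups compared (3.09%). The sets of a population were separate animals, except for the pair in EC.

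**Figure D2:**
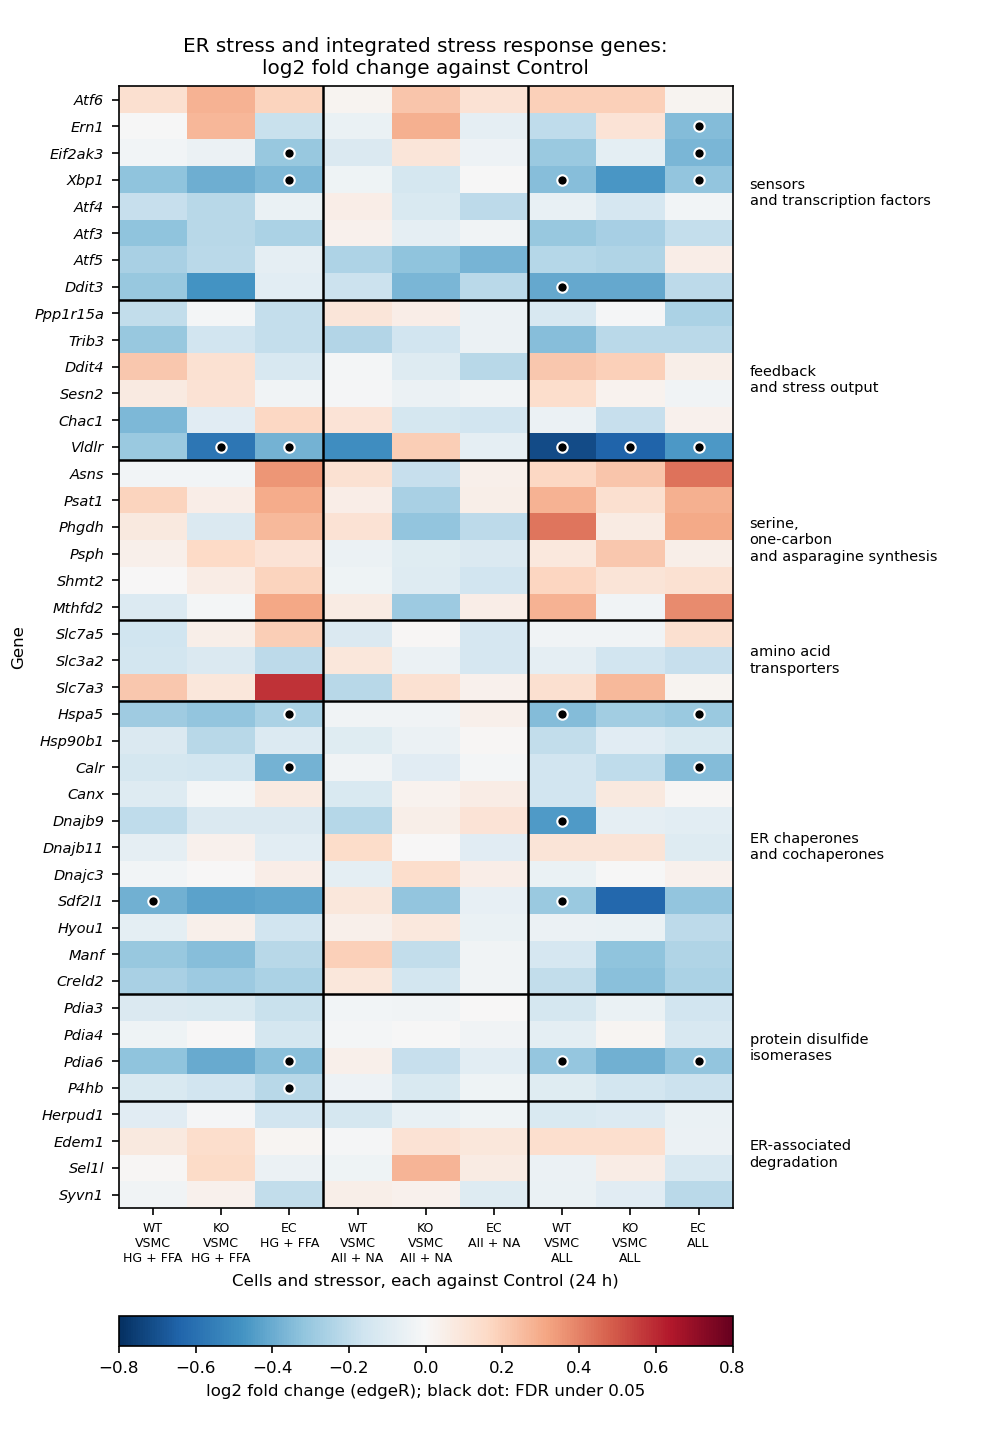
Log2FC against Control of the 42 genes (one gene a line, grouped by role) in the 9 comparisons, blue for lower and red for higher, with a black dot at FDR under 0.05. All 24 dots lie on blue fields and in columns of HG + FFA or ALL, and with ALL the genes Vldlr, Xbp1, Hspa5 and Pdia6 carry dots in both WT VSMC and EC.

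In WT VSMC exposed to HG + FFA, 1 of the 42 genes fell, the ER cochaperone gene Sdf2l1, and none rose, against 0.219% lower and 0.319% higher among the 16905 genes tested. Sdf2l1 was at 40.7, 26.8, 46.1 and 28.6 FPM in Control of sets 1 to 4 and at 30.8, 18.5, 37.5 and 23.0 FPM with HG + FFA (log2FC -0.39 ± 0.08 (SE), 0.77-fold, FDR 0.0401). It was lower in each of the 4 sets, although the groups overlapped. The log2FC of the 42 genes reached from -0.39 to 0.21 (Slc7a3), their median was -0.11 and that of all genes -0.0058, and 32 of the 42 genes were negative (76.2%, against 51.4% of all genes). All 11 ER chaperones and cochaperones and all 4 disulfide isomerases had negative values, between -0.39 and -0.02. Xbp1 had a log2FC of -0.32 (FDR 0.0657) and Hspa5 of -0.28 (FDR 0.147), which did not pass. Xbp1 did pass as lower with only the 2 groups compared (FDR 0.0435), without a filter on low counts (FDR 0.0324) and in DESeq2 (adjusted p 0.00619). These settings called 2, 3 and 6 of the 42 genes, all lower, against 0.62%, 0.75% and 0.862% of all genes lower; the 6 of DESeq2 were Xbp1, Hspa5, Sdf2l1, Manf, Creld2 and Pdia6. The other anchor genes of the pathway, taken whatever their value, were Ddit3 at -0.30 (FDR 0.321), Atf4 at -0.18 (FDR 0.382), Trib3 at -0.31, Herpud1 at -0.09 and Asns at -0.02, and none of them passed. The Sdf2l1 call was lost when any of sets 1 to 4 was left out (log2FC -0.41 to -0.34, FDR 0.073 to 0.257). Each of those fits called 0 of the 42 genes, against 0.0888, 0.323, 0.0767 and 0.234% of all genes higher and 0.0592, 0.176, 0.059 and 0.216% lower without sets 1, 2, 3 and 4.

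With ALL, 7 of the 42 genes fell in WT VSMC and none rose, against 3.53% lower and 3.92% higher among all genes tested. They were the transcription factor genes Xbp1 and Ddit3, the lipoprotein receptor gene Vldlr, the chaperone and cochaperone genes Hspa5, Dnajb9 and Sdf2l1, and the disulfide isomerase gene Pdia6. Over this comparison the median log2FC was -0.089 over the 42 genes and -0.01 over all genes, with the 42 between -0.72 (Vldlr) and 0.43 (Phgdh). Xbp1 was at 187, 135, 134 and 162 FPM in Control of sets 1 to 4 and at 138, 96.7, 121 and 133 FPM with ALL (log2FC -0.34 ± 0.07, 0.79-fold, FDR 0.0103). Hspa5, the main ER chaperone of the HSP70 family, was at 1057, 779, 1015 and 835 FPM in Control and at 840, 534, 911 and 650 FPM with ALL (log2FC -0.35 ± 0.08, FDR 0.0149). For both genes each set was lower with ALL than in its own Control, while the 2 groups overlapped because the sets differed in level.

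Pdia6, which rearranges disulfide bonds and also binds IRE1, was at 502, 534, 398 and 530 FPM in Control and at 339, 413, 344 and 491 FPM with ALL (log2FC -0.31 ± 0.08, FDR 0.0255). Dnajb9, a BiP cochaperone gene that serves ER-associated degradation, was at 85.2, 65.8, 67.6 and 80.2 FPM in Control and at 66.3, 43.8, 58.2 and 51.8 FPM with ALL (log2FC -0.45 ± 0.09, 0.73-fold, FDR 0.00647). Sdf2l1 showed a log2FC of -0.30 ± 0.08 (FDR 0.0306). All 3 genes were lower in 4 of 4 sets.

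Vldlr gave the largest change of the 42 genes in this comparison. It was at 67.6, 109.2, 45.1 and 134 FPM in Control of sets 1 to 4 and at 48.8, 61.3, 36.6 and 56.2 FPM with ALL (log2FC -0.72 ± 0.12, 0.61-fold, FDR 0.00293). The sets that were high in Control fell most in FPM, and the library of set 3 was lowest in both groups. Ddit3, the gene of the pro-apoptotic factor CHOP, was at 129, 81.0, 107 and 61.6 FPM in Control and at 107, 67.3, 83.2 and 36.0 FPM with ALL (log2FC -0.41 ± 0.12, FDR 0.0444). Ddit3 shares 82.4% of its exonic bases with overlapping genes, Hspa5 44.2%, Manf 42.8%, Pdia3 26.5%, Xbp1 22.0% and P4hb 21.2%, and the strand setting of the counting is not given in the sources used here, so reads of the shared stretches cannot be told apart.

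Apart from Ddit3 and Vldlr, no gene of the ATF4 side among the 42 was called with ALL in WT VSMC. Atf4 itself, whose output is set mainly by translation, had a log2FC of -0.06 with ALL (95% confidence interval -0.23 to 0.10). The pseudokinase gene Trib3, a feedback target of ATF4 and CHOP, was at -0.34 (interval -0.74 to 0.06). Of the 6 genes of serine, one-carbon and asparagine synthesis 0 fell and 0 rose, with log2FC between 0.09 and 0.43, Phgdh, the first enzyme of serine synthesis, being highest. DESeq2 called Phgdh higher (0.43, adjusted p 0.0216). The 4 genes of ER-associated degradation lay between -0.12 and 0.13, and none passed.

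Atf4, Trib3, Asns and Herpud1 were not called in WT VSMC. Atf4 was at 242, 156, 171 and 126 FPM in Control of sets 1 to 4, at 248, 116, 161 and 104 FPM with HG + FFA and at 238, 152, 161 and 117 FPM with ALL. Trib3 was at 23.5, 14.1, 14.9 and 21.9 FPM in Control, at 30.0, 10.3, 11.6 and 13.3 FPM with HG + FFA and at 28.7, 13.2, 10.8 and 9.72 FPM with ALL. With ALL, Trib3 was higher in set 1 and lower in sets 2 to 4, and Atf4 was lower in each set by little. Asns was at 58.1, 28.6, 40.4 and 35.2 FPM in Control, at 69.7, 22.8, 47.2 and 28.6 FPM with HG + FFA and at 77.6, 37.7, 42.7 and 28.5 FPM with ALL (log2FC with ALL 0.16, interval -0.11 to 0.43). Herpud1, which encodes an ER membrane component of ER-associated degradation, was at 98.2, 75.9, 96.4 and 88.2 FPM in Control, at 65.8, 97.6 and 76.5 FPM in sets 2 to 4 with HG + FFA, where set 1 was slightly above its Control, and at 110.5, 69.3, 89.5 and 65.1 FPM with ALL (log2FC with ALL -0.12, interval -0.31 to 0.06). With ALL both genes were higher in some sets and lower in others. With HG + FFA, Xbp1 was at 147, 111, 111 and 126 FPM, Hspa5 at 873, 593, 938 and 662 FPM and Ddit3 at 133, 56.4, 80.3 and 49.1 FPM in sets 1 to 4.

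The count of 7 with ALL became 3 without set 1, 2 without set 2, 4 without set 3 and 2 without set 4, the called genes always lower, while the share of all genes called lower was 2.52%, 1.53%, 1.95% and 1.24% in the same order. In the same libraries 2 of 7 smooth muscle markers (Tagln and Mylk) and the cardiomyocyte marker Tnnt2 were higher with ALL and 2 of 8 endothelial markers (Cdh5 and Emcn) lower. The smooth muscle sum was 355 to 1161 FPM in Control and 1072 to 1514 FPM with ALL, while the endothelial sum was 1.52 to 9.46 FPM in Control and 0.65 to 8.51 FPM with ALL in sets 1, 3 and 4 and went from 64.7 to 28.8 FPM in set 2. The part of these differences in the results was not tested.

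In KO VSMC, Vldlr was the gene called with each metabolic exposure. With HG + FFA 1 of the 42 genes fell and none rose, against 0.103% lower and 0.336% higher among the 17538 genes tested, and with ALL again 1 fell and none rose, against 0.12% lower and 0.279% higher. With HG + FFA the median log2FC was -0.034 over the 42 genes and 0.0035 over all genes, with the 42 between -0.58 (Vldlr) and 0.28 (Atf6); with ALL the medians were -0.064 and -0.0018, with the 42 between -0.64 (Vldlr) and 0.26 (Slc7a3). Vldlr was at 151, 81.4, 52.4 and 45.8 FPM in Control of sets 5 to 8 and at 79.9, 56.0, 31.5 and 42.9 FPM with HG + FFA (log2FC -0.58 ± 0.12, 0.67-fold, FDR 0.0402). With ALL it was at 49.5, 32.1 and 38.9 FPM in sets 6, 7 and 8 (log2FC -0.64 ± 0.13, 0.64-fold, FDR 0.0489). Each set was lower than its Control, and set 5 had the highest Control level.

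Xbp1 did not pass in KO VSMC, with FDR 0.0817 for HG + FFA (log2FC -0.39) and 0.0587 for ALL (log2FC -0.47). It was at 126, 132, 129 and 118 FPM in Control of sets 5 to 8, at 116, 105, 84.5 and 83.3 FPM with HG + FFA, and at 107, 81.5 and 79.7 FPM in sets 6 to 8 with ALL. Each library of either exposure lay below each Control library.

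Hspa5 was at 622, 837, 758 and 926 FPM in Control of sets 5 to 8, at 574, 590.4, 599.6 and 754 FPM with HG + FFA, and at 565, 673 and 823 FPM in sets 6 to 8 with ALL (log2FC -0.31 and -0.28, FDR 0.248 and 0.39). Ddit3 was at 48.3, 57.5, 119 and 152 FPM in Control, at 49.0, 50.3, 84.0 and 67.0 FPM with HG + FFA and at 46.1, 100.4 and 81.4 FPM with ALL (log2FC -0.48 and -0.41, FDR 0.225 and 0.386). For Ddit3, sets 7 and 8 were high in Control and lower with either exposure, while set 5 hardly differed with HG + FFA. Atf4 was at 145, 150.04, 216 and 161 FPM in Control, at 145, 118, 197 and 121 FPM with HG + FFA and at 132, 216 and 126 FPM with ALL (log2FC -0.22 and -0.13). Trib3 was at 18.4, 7.43, 11.7 and 13.3 FPM in Control, at 13.6, 6.31, 12.8 and 12.4 FPM with HG + FFA and at 6.70, 12.6 and 8.88 FPM with ALL (log2FC -0.15 and -0.22). Neither gene passed, and their groups overlapped.

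Asns in KO VSMC was at 38.6, 31.8, 37.5 and 28.4 FPM in Control, at 34.6, 24.6, 66.6 and 22.1 FPM with HG + FFA and at 25.2, 79.5 and 26.3 FPM with ALL. Set 7 stood above the others with both exposures and the remaining sets were below their Control; the log2FC of -0.02 and 0.22 had wide intervals (-0.44 to 0.40 and -0.24 to 0.68). Herpud1 was at 58.8, 66.5, 82.5 and 75.0 FPM in Control, at 67.1, 63.3, 83.4 and 66.5 FPM with HG + FFA and at 65.8, 77.4 and 58.5 FPM with ALL (log2FC -0.01 and -0.11).

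The number of calls in KO VSMC depended on single sets. Without set 5, which retained Egfr counts and has no ALL library here, 8 genes fell with HG + FFA, namely Xbp1, Ddit3, Vldlr, Hspa5, Sdf2l1, Manf, Creld2 and Pdia6, and 4 fell with ALL. The calls over all genes also became more numerous without it, with 4.42% lower and 4.16% higher for HG + FFA and 0.476% lower and 0.565% higher for ALL. Without set 6 or set 7, 0 of the 42 genes were called in either comparison, against at most 0.0286% of all genes in a direction. With only the 2 groups compared Vldlr passed with neither exposure (FDR 0.719 with HG + FFA and 0.0914 with ALL), and the gene called with ALL was instead Sdf2l1 (log2FC -0.75, FDR 0.0139, against 0.316% of all genes lower). In set 5 Sdf2l1 stood at 24.7 FPM in Control and 30.4 FPM with HG + FFA, while in sets 6 to 8 it went from 56.3, 56.2 and 58.0 FPM to 30.2, 42.6 and 36.5 FPM. Set 5 also had Myh11 at 233 to 243 FPM, against 2.15 to 11.9 FPM in sets 6 to 8. Its sums of smooth muscle, fibroblast and leukocyte markers were 2970 to 3405, 11477 to 13096 and 138 to 170 FPM. In sets 6 to 8 these sums were 679 to 2004, 2733 to 4365 and 29.8 to 58.9 FPM. The smooth muscle markers Smtn and Des of set 5 lay within the ranges of sets 6 to 8. The part of these differences was not tested.

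In EC exposed to HG + FFA, 7 of the 42 genes fell and none rose, against 1.88% lower and 1.64% higher among the 17148 genes tested. They were the PERK gene Eif2ak3, Xbp1, Vldlr, Hspa5, the lectin chaperone gene Calr, Pdia6 and the disulfide isomerase gene P4hb. In this comparison the median log2FC was -0.12 over the 42 genes and -0.0034 over all genes, with the 42 between -0.41 (Sdf2l1) and 0.58 (Slc7a3). Xbp1 ranged from 79.8 to 254 FPM in Control (median 126) and from 70.9 to 189 FPM with HG + FFA (median 94.3), and was lower in 9 of 9 sets (log2FC -0.36 ± 0.08, 0.78-fold, FDR 0.00525). Calr, which helps glycoproteins fold, ranged from 338 to 1762 FPM in Control (median 557) and from 288 to 991 FPM with HG + FFA (median 433), and was lower in 9 of 9 sets (log2FC -0.38 ± 0.08, 0.77-fold, FDR 0.00411). The groups overlapped widely, since the sets differed more than the exposures did.

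Eif2ak3 ranged from 33.6 to 54.1 FPM in Control (median 39.7) and from 26.3 to 40.95 FPM with HG + FFA (median 33.3), and was lower in 9 of 9 sets (log2FC -0.30 ± 0.08, FDR 0.0279). Pdia6 had medians of 321 and 241 FPM, with ranges of 226 to 468 and 206 to 343 FPM, and was lower in 8 of 9 sets (log2FC -0.33 ± 0.07, FDR 0.00338). P4hb, the most abundant of the 42 genes per kb, had medians of 794 and 732 FPM and a smaller change (log2FC -0.22 ± 0.06, FDR 0.0224), lower in 7 of 9 sets. Vldlr (log2FC -0.38 ± 0.10, FDR 0.0246) and Hspa5 (-0.25 ± 0.07, FDR 0.047) were each lower in 8 of 9 sets. Hspa5 ranged over 397 to 1155 FPM (median 618) in Control and 339 to 1071 FPM (median 555) with HG + FFA, and Vldlr over 14.6 to 96.8 FPM (median 53.1) and 10.2 to 71.3 FPM (median 46.5).

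With ALL, 7 of the 42 genes fell in EC and none rose, against 2.04% lower and 1.14% higher among all genes. Of them, Eif2ak3, Xbp1, Vldlr, Hspa5, Calr and Pdia6 had also been called with HG + FFA, which used the same Control libraries. The other was Ern1, the gene of the sensor IRE1, with a Control range of 65.2 to 230 FPM (median 101.1) and a range of 62.7 to 146 FPM with ALL (median 90.5), lower in 7 of 9 sets (log2FC -0.35 ± 0.08, 0.79-fold, FDR 0.00711). Vldlr showed the largest change of the 42 genes in this comparison (log2FC -0.46 ± 0.10, FDR 0.00642), with medians of 53.1 and 37.1 FPM and 9 of 9 sets lower. Eif2ak3 had a log2FC of -0.36 ± 0.08 (FDR 0.00862), Pdia6 of -0.32 ± 0.07 (FDR 0.00591), Calr of -0.35 ± 0.08 (FDR 0.00901), Xbp1 of -0.31 ± 0.08 (FDR 0.0162) and Hspa5 of -0.30 ± 0.07 (FDR 0.0176). The medians in this comparison were -0.12 over the 42 genes and -0.012 over all genes, with the 42 between -0.46 (Vldlr) and 0.44 (Asns).

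Atf4, Ddit3, Trib3, Asns and Herpud1 were not called in EC. Atf4 ranged over 88.4 to 345 FPM (median 130.0) in Control, 90.9 to 284 FPM (median 141) with HG + FFA and 90.8 to 309 FPM (median 156) with ALL, with log2FC of -0.06 and -0.02. Ddit3 ranged over 23.4 to 93.4 FPM (median 31.3), 18.6 to 72.5 FPM (median 33.8) and 17.99 to 74.3 FPM (median 30.3) in the same order (log2FC -0.09 and -0.21). Set 13 gave the highest Ddit3 value in each of these groups. Trib3 ranged over 4.90 to 50.6 FPM (median 23.7), 3.57 to 103 FPM (median 13.7) and 3.55 to 76.3 FPM (median 19.1) (log2FC -0.19 and -0.22, intervals -0.64 to 0.26 and -0.67 to 0.23). Asns ranged over 14.7 to 105 FPM (median 33.8), 14.3 to 169.8 FPM (median 41.99) and 15.1 to 105 FPM (median 53.9) (log2FC 0.36 and 0.44, intervals -0.18 to 0.89 and -0.10 to 0.97). By the ratio of the highest to the lowest library, both genes spread more widely in each group than Hspa5, Calr, Pdia6 and P4hb. Herpud1 ranged over 44.7 to 132 FPM (median 69.9), 45.3 to 100.99 FPM (median 60.7) and 44.0 to 108 FPM (median 69.4) (log2FC -0.15 and -0.05).

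**Figure D3:**
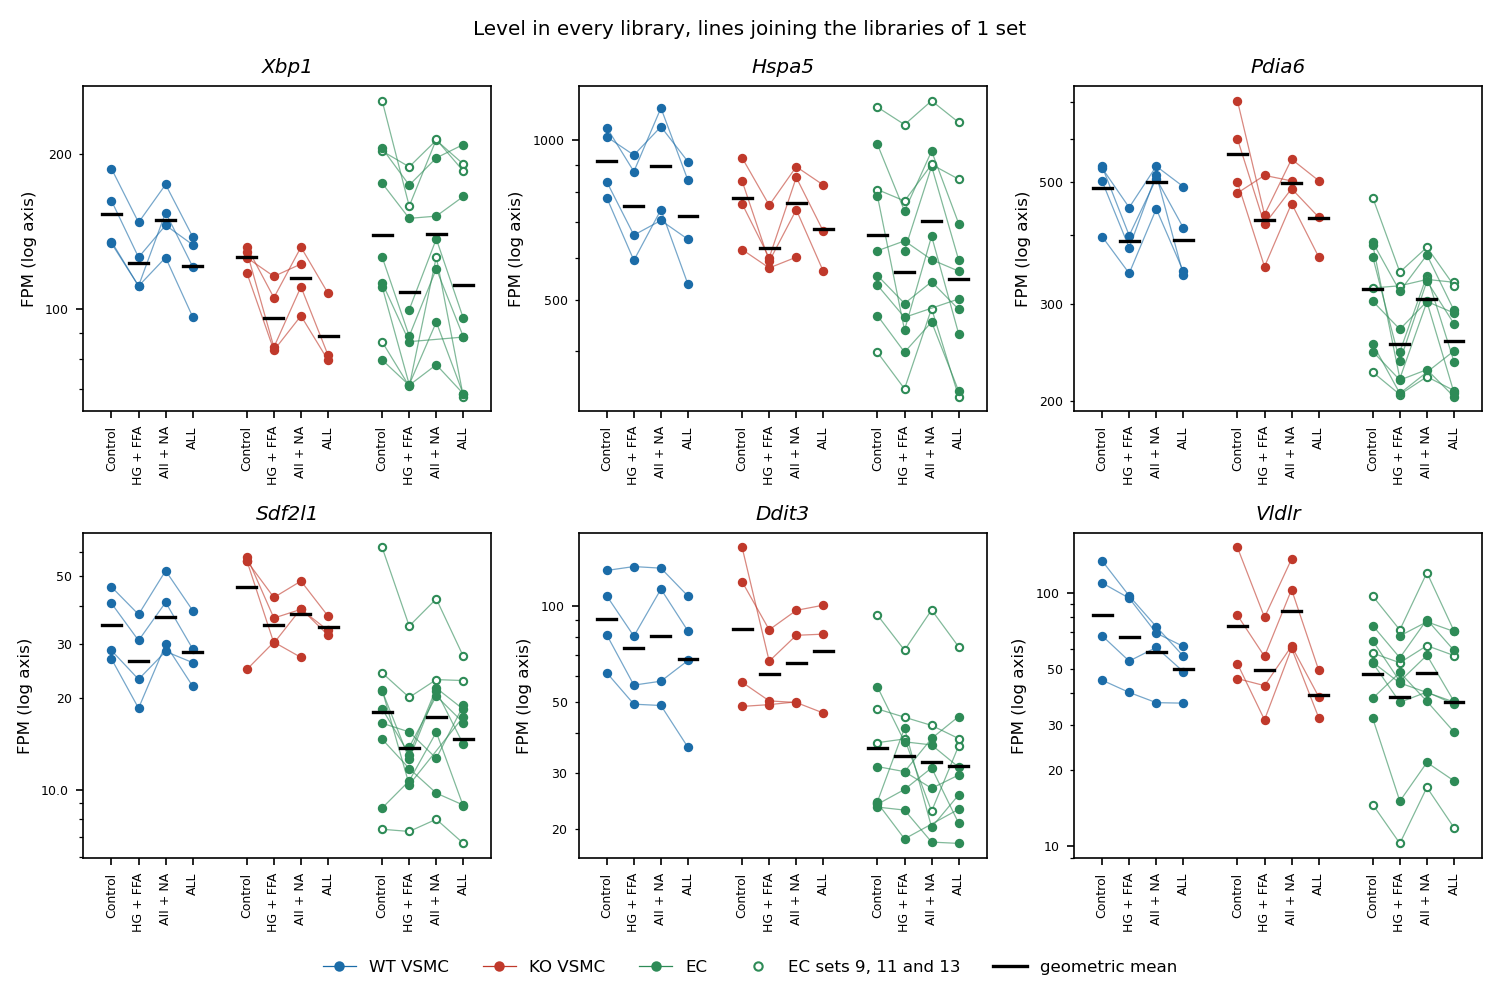
FPM on a log axis in every library for Xbp1, Hspa5, Pdia6, Sdf2l1, Ddit3 and Vldlr, by cell population and condition, with thin lines joining the libraries of a set and a black bar at the geometric mean; open circles are EC sets 9, 11 and 13. Xbp1 and Pdia6 are lower with HG + FFA and ALL than with Control and AII + NA in all 3 cell populations by their geometric means, while the sets of EC spread over a range far wider than any condition effect.

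These EC calls depended in part on which sets and blocks were used. Without the 3 sets of low endothelial marker level, 4 genes were called with HG + FFA and 8 with ALL, all lower, against 1.28% and 1.27% of all genes lower; with the animal in place of the set as block, which joins the sets that share an animal, 0 and 2 were called, against 0.426% and 0.408%. Without sets 15 and 16, from the animals that also gave KO VSMC, 2 were called with HG + FFA (Calr and Pdia6) and 5 with ALL (Ern1, Eif2ak3, Vldlr, Calr and Pdia6), all lower, against 0.756% and 0.963% of all genes lower. When single sets were left out, the count with HG + FFA was 4 without set 13, 14, 15 or 16 (against 1.06%, 1.21%, 1.098% and 1.74% lower) and 5 to 8 without any of the others, and the count with ALL was 5 to 8, all lower. The range of shares of all genes in the HG + FFA fits is given with the processing below. That of the ALL fits is not given here, so these ALL counts cannot be set against it. In EC with HG + FFA 2 of 6 fibroblast markers, Col1a1 and Col1a2, were lower, and with ALL 1, Col1a2. Of the 7 endothelial markers tested 1, Emcn, was higher with each exposure and none passed as lower, while their median log2FC was -0.08 with HG + FFA and -0.11 with ALL. The fibroblast sum had a median of 4919 FPM in Control, and in the same 9 sets 4507 FPM with HG + FFA and 4550 FPM with ALL, lower than Control in 7 and 8 sets. The endothelial sum had medians of 720, 746 and 795 FPM in the same order and was higher than Control in 6 of 9 sets with either exposure (median log2 ratio within a set 0.05 and 0.06). The part of these differences was not tested beyond the fits without these sets.

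**Figure D4:**
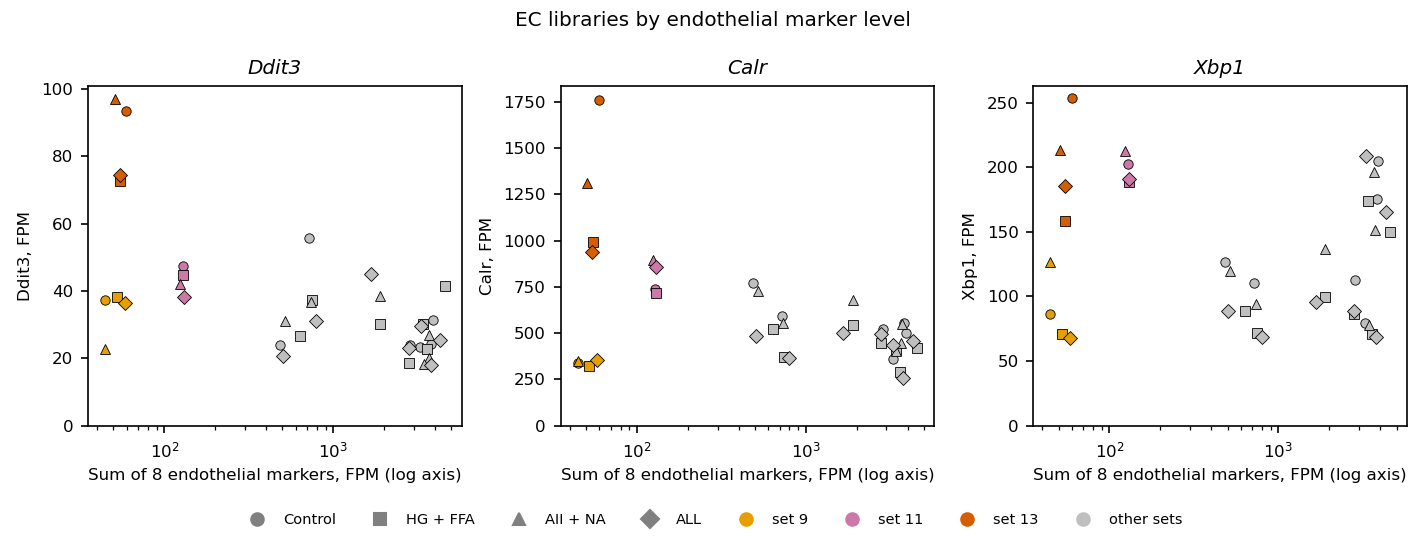
Ddit3, Calr and Xbp1 (FPM) in each EC library against the sum of 8 endothelial markers (FPM, log axis), with the condition as symbol and sets 9, 11 and 13 in colour. The coloured sets lie at 44.5 to 130 FPM of the marker sum and the other sets at 486 to 4576 FPM, and set 13 holds the highest Ddit3 and Calr values.

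A joint contrast set the dishes with glucose and fatty acids (HG + FFA and ALL) against those without (Control and AII + NA) within each cell population. In WT VSMC 8 of the 42 genes fell and none rose, against 3.33% lower and 3.44% higher among all genes. The called genes were Xbp1 (log2FC -0.31, FDR 0.00202), the immediate stress factor gene Atf3 (-0.33, FDR 0.0352), Ppp1r15a, whose product recruits the phosphatase of eIF2alpha (-0.21, FDR 0.0178), Hspa5 (-0.30, FDR 0.00477), Sdf2l1 (-0.39, FDR 0.000843), the secreted ER protein gene Manf (-0.32, FDR 0.00558), Creld2 (-0.27, FDR 0.00365) and Pdia6 (-0.34, FDR 0.00209). In KO VSMC 2 fell and none rose, against 1.06% lower and 1.12% higher: Xbp1 (-0.36, FDR 0.00929) and Vldlr (-0.71, FDR 0.000409). In EC 12 fell and none rose, against 5.13% lower and 3.47% higher, with Xbp1 at -0.33 (FDR 6.97e-05), Calr at -0.35 (FDR 4.5e-05), Eif2ak3 at -0.31, Vldlr at -0.39, Hspa5 at -0.30, Sdf2l1 at -0.33 and Pdia6 at -0.28. The other 5 called in EC had smaller changes: Ern1 at -0.23 (FDR 0.00476), Creld2 at -0.24 (FDR 0.00921), Manf at -0.22 (FDR 0.0195), P4hb at -0.18 (FDR 0.00308) and Pdia3 at -0.17 (FDR 0.0129). The median over the 42 genes was -0.12 in EC, -0.086 in WT VSMC and -0.058 in KO VSMC, against -0.006, -0.0011 and -7.6e-05 over all genes. The count was 5 without set 3 in WT VSMC (against 1.1% of all genes lower), and in KO VSMC it was 7 without set 5, 1 without set 6 and 1 without set 7 (against 1.69%, 0.355% and 0.0901% lower). In EC it was 12 without the 3 sets of low endothelial marker level and 6 with the animal as block (against 4.15% and 2.37% lower), 10 without sets 15 and 16 (against 3.8%) and 9 to 14 when single sets were left out (against 3.53 to 5.12%).

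Marker genes of cell types moved in the same joint contrast. In EC the fibroblast markers Pdgfra (-0.32), Col1a1 (-0.54) and Col1a2 (-0.56) and the endothelial markers Tek (-0.32) and Vwf (-0.44) were lower and the endothelial marker Emcn (0.36) higher. In KO VSMC the smooth muscle markers Myh11 (-0.68) and Smtn (-0.37) and the cardiomyocyte marker Tnnt2 (-1.08) were lower, and in WT VSMC the leukocyte marker Adgre1 (-1.18). Their part in the results was not tested.

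By role, the joint contrast gave the following. Among the 8 sensors and transcription factors 3 fell in EC, 2 in WT VSMC and 1 in KO VSMC, Xbp1 being the one called in all 3. Among the 6 genes of feedback and stress output 1 fell in each population, Ppp1r15a in WT VSMC and Vldlr in the other two. Among the 11 chaperones and cochaperones 4 fell in WT VSMC and 5 in EC, and none passed in KO VSMC, where their median was -0.13. Among the 4 disulfide isomerases 1 fell in WT VSMC and 3 in EC. Of the 4 degradation genes, the 3 amino acid transporters and the 6 amino acid synthesis genes none passed in any cell population. All 6 synthesis genes had positive log2FC in each population, with medians of 0.29 in EC, 0.10 in WT VSMC and 0.16 in KO VSMC. The 3 transporters had medians of 0.23, -0.03 and 0.0042 in the same order, with 1, 2 and 1 of them negative. In EC the synthesis genes split by set: with HG + FFA and with ALL, sets 12 and 14 gave the 2 highest ratios to Control for each of the 6. From Control to HG + FFA, Asns went from 31.3 to 169.8 FPM in set 12 and from 15.6 to 68.8 FPM in set 14, Phgdh from 65.3 to 179.7 and from 14.2 to 73.0 FPM, and Mthfd2 from 10.9 to 60.3 and from 6.12 to 25.5 FPM. Over the 9 sets the median log2 ratio with HG + FFA was -0.03 for Asns, -0.09 for Phgdh and 0.02 for Mthfd2, with 5, 5 and 4 sets below Control. In EC Asns, the asparagine synthetase gene, was at 0.38 (interval -0.01 to 0.76, FDR 0.252), Phgdh at 0.39 and the mitochondrial one-carbon gene Mthfd2 at 0.32, so that neither a rise nor its absence was resolved. Without a filter on low counts 7 of the 42 genes passed as higher in EC (Atf5, Asns, Psat1, Phgdh, Shmt2, Mthfd2 and Slc7a5), against 1.66% of all genes, and 3 in WT VSMC (Ddit4, Psat1 and Phgdh), against 2.52%.

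Single chaperones differed in how firmly they were bounded. Canx, the membrane-bound partner of calreticulin, had a log2FC of -0.07 in WT VSMC (interval -0.17 to 0.04) and 0.01 in EC (interval -0.08 to 0.10). Dnajc3, an inhibitor of PERK, had an interval of -0.12 to 0.12 in WT VSMC and of -0.07 to 0.10 in EC. For both genes the intervals leave out a change of the size seen for Hspa5. Hsp90b1, the ER member of the HSP90 family, lay between, at -0.12 in EC, -0.11 in WT VSMC and -0.13 in KO VSMC, and did not pass.

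**Figure D5:**
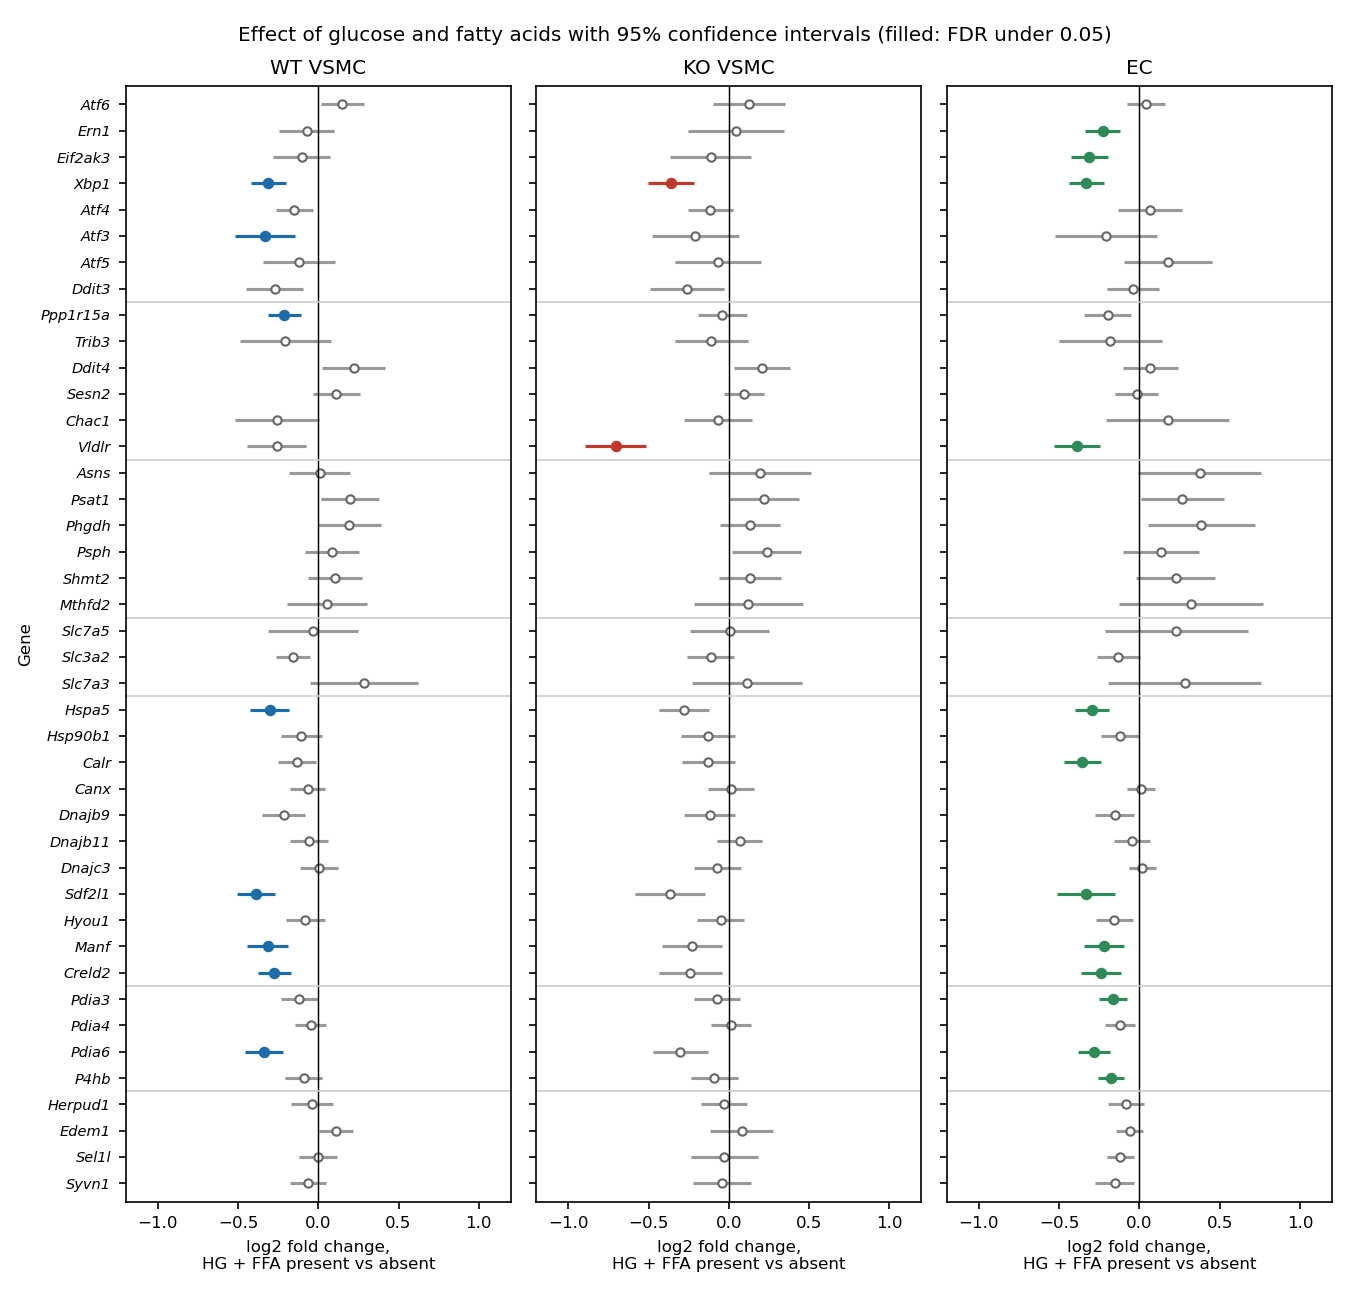
Log2FC with 95% confidence interval of each gene for glucose and fatty acids present against absent, by cell population, filled where FDR was under 0.05. Filled points number 12 in EC, 8 in WT VSMC and 2 in KO VSMC, all left of 0, and the 6 synthesis genes from Asns to Mthfd2 lie right of 0 in every panel without passing.

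The further genes of the pathways were taken from a list of 80 genes outside the 42, of which 79 were tested. With ALL in WT VSMC 4 rose and 3 fell (5.06% and 3.8%, near the shares of all genes given above for this comparison), among them the growth factor gene Gdf15 at 0.68, the methionyl-tRNA synthetase gene Mars1 at 0.36, the carnitine palmitoyltransferase gene Cpt1a at 0.53 and the stress factor gene Nupr1 at -0.71 on the log2 scale. Mars1 overlaps Ddit3 on the genome. With HG + FFA in KO VSMC 1 rose (1.27%, against 0.336% of all genes), Cpt1a at 1.04, and none fell, and with ALL again 1 rose (against 0.279%), Cpt1a at 0.99. With HG + FFA in EC 3 rose and 6 fell (3.8% and 7.59%, against 1.64% and 1.88% of all genes), Cpt1a being highest at 0.80 and the degradation factor gene Selenos lowest at -0.41. With ALL in EC 2 rose and 7 fell (2.53% and 8.86%, against 1.14% and 2.04% of all genes), including Selenos (-0.38), the disulfide isomerase gene Txndc5 (-0.37) and the translocon gene Sec61a1 (-0.26). The joint contrast of glucose and fatty acids was also read for the 79 genes. In EC 8 rose and 12 fell (10.1% and 15.2%, against 3.47% and 5.13% of all genes). In WT VSMC 5 rose and 5 fell (6.33% each, against 3.44% and 3.33%). In KO VSMC 1 rose and 2 fell (1.27% and 2.53%, against 1.12% and 1.06%). Of the 20 genes tested that are listed as ATF4 targets, 5 rose and 1 fell in EC. The numbers were 3 and 4 in WT VSMC and 1 and 2 in KO VSMC. Cpt1a is listed as an ATF4 target and is also the rate-limiting enzyme gene of mitochondrial fatty acid uptake, a target of fatty acid receptors.

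AII + NA alone moved none of the 42 genes past the threshold in any cell population. In WT VSMC 0 were called, against 0.0532% of all genes, and 3 had an unadjusted p under 0.05, against 9.42% of all genes; DESeq2 called 1, Vldlr, lower, against 0.141% lower. In KO VSMC 0 were called, against 0.0%, and 3 had an unadjusted p under 0.05, against 9.76%; DESeq2 called 0. In EC 0 were called, against 0.0%, and 0 had an unadjusted p under 0.05, against 6.67%; DESeq2 called 0, and without a filter on low counts 1 was called, Atf5, lower, against 0.0985% lower. The smallest p in WT VSMC belonged to Vldlr, which went from 67.6, 109.2, 45.1 and 134 FPM to 60.8, 69.3, 36.8 and 73.4 FPM (log2FC -0.49), lower in each set. The next were the cochaperone gene Dnajb9 (log2FC -0.23, p = 0.0222, FDR 0.417, edgeR) and Manf (0.19, p = 0.041, FDR 0.504). In KO VSMC Vldlr went from 151, 81.4, 52.4 and 45.8 FPM to 136, 103, 60.4 and 61.5 FPM, lower in set 5 and higher in sets 6 to 8. The smallest p in KO VSMC belonged to Phgdh (log2FC -0.31, p = 0.0181), Ddit3 (-0.37, p = 0.023) and Sdf2l1 (-0.32, p = 0.0367), each at an FDR of 0.509 in edgeR. In EC they belonged to Atf5 (log2FC -0.37, p = 0.0654), Ddit3 (-0.22, p = 0.0738) and the stress gene Ddit4 (-0.22, p = 0.0828), each at an FDR of 0.719 in edgeR.

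None of the anchor genes passed with AII + NA. Xbp1 was at -0.01 in EC (interval -0.17 to 0.15), -0.04 in WT VSMC (-0.19 to 0.12) and -0.14 in KO VSMC (-0.33 to 0.05), and Hspa5 at 0.04 in EC, -0.03 in WT VSMC and -0.03 in KO VSMC. Herpud1 was at -0.03, -0.14 and -0.06 and Atf4 at -0.21, 0.05 and -0.12 in the same order. Trib3 was at -0.04, -0.24 and -0.16, Asns at 0.04, 0.12 and -0.18, and Ddit3 at -0.17 in WT VSMC. Per library, Xbp1 with AII + NA was at 175, 126, 154 and 146 FPM in sets 1 to 4 and at 122, 132, 111 and 97.2 FPM in sets 5 to 8, and Hspa5 at 1151, 739, 1061 and 706 FPM and at 601, 739, 851 and 891 FPM. In EC Xbp1 ranged over 78.1 to 213 FPM (median 137) and Hspa5 over 454 to 1188 FPM (median 659). For both genes these values overlapped those of Control in each cell population. Atf4 was at 257, 151, 191 and 125 FPM in sets 1 to 4 and at 150.04, 132, 193 and 141 FPM in sets 5 to 8, and ranged in EC over 44.9 to 352 FPM (median 158). Ddit3 was at 131, 58.0, 113 and 48.7 FPM and at 49.96, 49.7, 96.7 and 80.8 FPM, and ranged in EC over 18.2 to 97.0 FPM (median 31.0). In KO VSMC the Ddit3 libraries of sets 6, 7 and 8 were below their Control and that of set 5 slightly above it. Trib3 was at 24.8, 9.83, 16.8 and 13.6 FPM and at 17.2, 7.20, 9.82 and 11.1 FPM, and ranged in EC over 6.28 to 46.0 FPM (median 20.5). Asns was at 66.5, 29.3, 44.8 and 37.5 FPM and at 37.7, 26.3, 34.6 and 23.3 FPM, and ranged in EC over 16.6 to 102 FPM (median 39.6). Herpud1 was at 93.8, 63.7, 103 and 68.96 FPM and at 64.9, 70.0, 73.6 and 61.9 FPM, and ranged in EC over 41.1 to 123 FPM (median 70.0). Asns was higher than its Control in each set of WT VSMC and lower in each set of KO VSMC, while Trib3 and Herpud1 moved both ways between sets of WT VSMC. The 42 genes lay between -0.37 (Atf5) and 0.12 (Atf6) in EC, between -0.49 (Vldlr) and 0.19 (Manf) in WT VSMC and between -0.37 (Ddit3) and 0.28 (Ern1) in KO VSMC, with medians of -0.034, -0.021 and -0.053 against 0.01, -0.012 and 0.0076 over all genes.

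The difference of the AII + NA effect on Vldlr between WT VSMC and KO VSMC was -0.68 on the log2 scale, with an unadjusted p of 0.000862 and an FDR of 0.395 in edgeR's test over all genes. None of the 42 genes passed for a difference between WT VSMC and KO VSMC. KO VSMC set 5, with Egfr at 33.7 to 40.2 FPM, stayed in the contrasts of HG + FFA and AII + NA. For HG + FFA 0 were called against 0.0% of all genes, and 0 had an unadjusted p under 0.05, against 3.08%. For AII + NA 0 were called against 0.0%, and 4 had an unadjusted p under 0.05, against 11.9%. For ALL 0 were called against 0.0109%, and 1 had an unadjusted p under 0.05, against 7.42%. DESeq2 called 0 in each of the 3. Without a filter on low counts 1 passed for AII + NA, Vldlr, against 0.283% of all genes in that direction. The smallest unadjusted p for the difference (WT VSMC minus KO VSMC, log2 scale, edgeR) belonged to Vldlr (0.29, p = 0.122), Ppp1r15a (-0.18, p = 0.133) and Chac1 (-0.27, p = 0.236) with HG + FFA, and to Dnajb9 (-0.37, p = 0.0158), Canx (-0.23, p = 0.0582) and Sdf2l1 (0.33, p = 0.066) with ALL. With AII + NA, Vldlr was followed by Manf (0.40, p = 0.0138) and Sdf2l1 (0.42, p = 0.0179). The differences of the 42 genes lay between -0.27 (Chac1) and 0.29 (Vldlr), median -0.03 against -0.0039 over all genes, with HG + FFA, between -0.68 (Vldlr) and 0.44 (Phgdh), median 0.056 against -0.0062 over all genes, with AII + NA, and between -0.37 (Dnajb9) and 0.37 (Phgdh), median 0.0029 against -0.0033 over all genes, with ALL. The median interval half-width of a difference over the 42 genes was 0.31 for HG + FFA and 0.32 for ALL on the log2 scale, while the called effects of ALL in WT VSMC were between -0.30 and -0.72.

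Control dishes of the 2 genotypes were also compared. None of the 42 genes was called between KO VSMC and WT VSMC, against 0.00622% of all genes, and 1 had an unadjusted p under 0.05, against 12.2%; DESeq2 called 0. That gene was the serine synthesis gene Psat1, higher in KO VSMC by 0.60 on the log2 scale (p = 0.0168, FDR 0.386, edgeR). The next were Dnajb9 (-0.35, p = 0.0512) and Herpud1 (-0.35, p = 0.0516), and the 42 genes lay between -0.56 (Trib3) and 0.60 (Psat1), median -0.10 against -0.0026 over all genes.

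A departure of ALL from the sum of its parts was not found for any of the 42 genes. In WT VSMC 0 were called, against 0.0% of all genes, and 0 had an unadjusted p under 0.05, against 1.72%. In KO VSMC 0 were called against 0.0%, and 1 had an unadjusted p under 0.05, against 6.59%. In EC 0 were called against 0.0%, and 2 had an unadjusted p under 0.05, against 8.42%. DESeq2 called 0 in each population, and without a filter on low counts 1 was called in EC, Atf5, against 0.178% of all genes in that direction. The smallest unadjusted p (log2 departure, edgeR) belonged to Ddit4 (0.40, p = 0.0245), Atf6 (-0.27, p = 0.027) and Atf5 (0.50, p = 0.0719) in EC, to Mthfd2 (0.32, p = 0.184), Atf5 (0.28, p = 0.206) and Shmt2 (0.21, p = 0.213) in WT VSMC, and to Phgdh (0.49, p = 0.0142), Ddit3 (0.44, p = 0.0642) and Sel1l (-0.36, p = 0.0822) in KO VSMC. The departures of the 42 genes lay between -0.59 (Slc7a3) and 0.50 (Atf5), median 0.03 against -0.019 over all genes, in EC, between -0.16 (Eif2ak3) and 0.32 (Mthfd2), median 0.03 against 0.011 over all genes, in WT VSMC, and between -0.44 (Ern1) and 0.49 (Phgdh), median 0.063 against -0.013 over all genes, in KO VSMC.

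Dishes with angiotensin II and the catecholamine were likewise set against those without. In WT VSMC 1 of the 42 genes fell and none rose, against 1.01% of all genes lower and 2.41% higher (3.41% in either direction): Vldlr at -0.46 (FDR 0.0109). In KO VSMC 0 were called, against 0.0%, and 1 had an unadjusted p under 0.05, against 3.86%. In EC 0 were called, against 0.0%, and 2 had an unadjusted p under 0.05, against 3.41%. DESeq2 called 0 in both of these. Without set 1 the WT VSMC count was 4, with Vldlr and Dnajb9 lower and Manf and Dnajb11 higher, against 4.05% higher and 2.65% lower among all genes. It was 0 without set 2 (1.01% higher and 0.0941% lower) and without set 4 (0.287% higher and 0.0117% lower). The smallest unadjusted p belonged to Sdf2l1 (-0.26, p = 0.0244), Xbp1 (-0.11, p = 0.129) and Atf5 (-0.17, p = 0.182) in KO VSMC and to Ern1 (-0.12, p = 0.0318), Ddit3 (-0.17, p = 0.0415) and Dnajb9 (0.07, p = 0.243) in EC (log2FC, edgeR). The 42 genes lay between -0.26 (Slc7a3) and 0.07 (Dnajb9), median -0.02 against -0.0078 over all genes, in EC, between -0.46 (Vldlr) and 0.23 (Phgdh), median 0.004 against -0.0095 over all genes, in WT VSMC, and between -0.26 (Sdf2l1) and 0.15 (Slc7a3), median -0.025 against -0.0059 over all genes, in KO VSMC.

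Between EC and WT VSMC in Control, 2 of the 42 genes were higher in EC and 2 lower, against 6.7% higher and 5.35% lower among the 17115 genes tested. Ern1 ranged from 33.9 to 57.03 FPM in WT VSMC (median 48.4) and from 65.2 to 230 FPM in EC (log2FC 1.39, 2.62-fold), without overlap. Atf6 ranged from 37.2 to 68.5 FPM in WT VSMC and from 60.5 to 99.5 FPM in EC (log2FC 0.64), with overlap. Atf5, a transcription factor of the ATF4 family, ranged from 564 to 697 FPM in WT VSMC and from 57.2 to 527 FPM in EC (log2FC -1.83, 0.28-fold), without overlap, and Ddit3 from 61.6 to 129 FPM and from 23.4 to 93.4 FPM (log2FC -1.23, 0.43-fold). The median over the 42 genes was -0.14, against 0.045 over all genes. Organ, cell type, isolation and the batch that the labels name without saying of what coincide in this comparison and cannot be told apart, and EC set 9 came from the animal of WT VSMC set 1. Without sets 9, 11 and 13 the counts were 2 higher and 11 lower, against 14.98% higher and 13.5% lower among all genes. Without sets 15 and 16 they were 1 higher (Ern1) and 1 lower (Sesn2), against 3.24% and 2.6%. Of the single EC sets, leaving out set 13 gave 2 higher and 10 lower (against 10.4% and 9.02%), set 18 gave 1 and 1 (against 5.74% and 4.28%), and any other gave 3 or 4 in all, except set 10, which has no Control library here. Of the sets of WT VSMC, the total of 4 called genes was 1 without set 1 (all genes 2.14% higher and 2.26% lower), 0 without set 2 (1.82% higher and 1.91% lower), 3 without set 3 (2.19% higher and 2.68% lower) and 2 without set 4 (2.48% higher and 2.41% lower).

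The culture a library came from accounted for more of the variation of the 42 genes than the exposure. The median share of the variance between libraries that lay between sets was 85.3% in EC, 73.7% in WT VSMC and 66.6% in KO VSMC, and the share that lay between conditions was 3.23%, 8.94% and 15.5%. For all genes tested the set shares were 73.0%, 61.5% and 49.4% and the condition shares 3.43%, 10.8% and 20.8%. These shares rest on the sets with all 4 conditions, 8 in EC, 4 in WT VSMC and 3 in KO VSMC. The log2FC of the 42 genes were alike between the 2 smooth muscle genotypes with HG + FFA (Pearson's r = 0.81 across the 42 genes, against 0.41 across all genes) and with ALL (0.77, against 0.36), and with AII + NA they were not (r = -0.27, against 0.00076). Between WT VSMC and EC r was 0.59 with HG + FFA (against 0.40) and 0.78 with ALL (against 0.33). Between KO VSMC and EC it was 0.54 (against 0.40) and 0.63 (against 0.34) in the same order. With AII + NA it was 0.02 between WT VSMC and EC (against -0.04) and 0.46 between KO VSMC and EC (against 0.15). Genes are not independent replicates, and the log2FC of a population share its Control libraries, so these values are given as a description only.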

How the data were processed

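Poly(A) RNA-Seq was measured in 69 libraries. The authors aligned reads to mm39 with HISAT2 2.1.0 and deposited raw counts per Ensembl gene from featureCounts, one value per gene and library, with multi-mapping reads counted; strand and read-pair settings were not given in the sources used here. Groups were taken from the labels, which give each library its cell population, condition and set number. The ALL library of set 5, the Control library of set 10 and the AII + NA library of set 15 were not analysed here.

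Counts were fitted per cell population with edgeR 4.0.16 in R 4.3.3: filterByExpr by group, TMM scaling, the quasi-likelihood test and the set as block, with Benjamini-Hochberg adjustment over all genes tested and calls at FDR under 0.05. Smooth muscle genotypes were fitted together for the differences between them. Control levels of different populations were compared without a block. Library sizes limit precision: the shallowest library held 17166133 counts. Same-set libraries deviated together (lowest correlation of deviations from group means 0.48 in EC, 0.44 in WT VSMC and 0.52 in KO VSMC), so set numbers, which mark parallel dishes of one culture, pair the libraries. No 2 libraries of the same group were duplicates by a chi-square test of counts (207 pairs). Gene names and exonic lengths came from GENCODE vM39 on GRCm39 and promoters from RefSeq on GRCm38.p6. Motifs were searched with Python 3.11.15. The fits were also run on simulated counts with known changes, and the outcome is not given here. Alternatives were DESeq2 1.42.0, its size factors in edgeR, no filter, no block, the animal as block, only the 2 groups compared, leaving out each set, and the size rule of the study. That rule asked for an adjusted p under 0.05 in both edgeR and DESeq2, absolute log2FC 0.64 or more and level 3 FPM or more. The contrasts of stressors present against absent and the fits without EC sets 9, 11 and 13, without EC sets 15 and 16 and without each EC set in turn were chosen after seeing the data. The 42 genes and the lists of further pathway genes and markers were chosen with earlier results of these data known. Genes named are those called (the 12 with the smallest p if there were more), the 3 with the smallest p where none was called, the anchors Atf4, Ddit3, Trib3, Asns, Xbp1, Hspa5 and Herpud1 in the comparisons with Control, and further pathway genes if called (at most 6). Canx, Dnajc3, Hsp90b1, Phgdh, Mthfd2 and genes named for an alternative or their Control level were chosen after their values were seen.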

Additional observations from a re-analysis of the deposited data

Results flagged for a closer look

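Among 15 of the 42 genes with values shown by library, 165 groups of 4 to 10 libraries were searched for a single value whose gap to its nearest neighbour took an unusual part of the group's range (Dixon's 95% limit). Chance gives about 1 such value in 20 groups, here 8.25, and 20 were found, 11 of them from EC set 13, one of the sets with low endothelial marker levels. The groups are not independent, because a culture enters several conditions and all 15 genes, so the number found is a description only. In set 13 Atf4 was the highest value in Control (345 FPM, next 192), with AII + NA (352 FPM, next 192) and with ALL (309 FPM, next 203). Ddit3 was highest there in Control (93.4 FPM, next 55.6), with HG + FFA (72.5 FPM, next 44.7), with AII + NA (97.0 FPM, next 42.1) and with ALL (74.3 FPM, next 44.9). Sdf2l1 was highest there in Control (62.1 FPM, next 24.1), with HG + FFA (34.3 FPM, next 20.0) and with AII + NA (42.2 FPM, next 22.9), and Calr in Control (1762 FPM, next 770).

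The other EC values that stood apart were Ern1 of set 14 with AII + NA (226 FPM, next 146), Eif2ak3 of set 9 with AII + NA (25.8 FPM, the lowest, next 36.8) and Asns of set 12 with HG + FFA (170 FPM, next 97.3). In WT VSMC they were Ern1 (30.6 FPM, the lowest, next 51.3) and Trib3 (30.0 FPM, the highest, next 13.3) of set 1 with HG + FFA. In KO VSMC they were Trib3 of set 6 with HG + FFA (6.31 FPM, the lowest, next 12.4), Hspa5 of set 8 with HG + FFA (754 FPM, the highest, next 599.7), P4hb of set 5 with HG + FFA (1756 FPM, the highest, next 1230.1) and Sdf2l1 of set 5 in Control (24.7 FPM, the lowest, next 56.2).

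With AII + NA the Asns values lay on opposite sides of Control in the 2 genotypes, above it in each WT VSMC set (median log2 ratio 0.12) and below it in each KO VSMC set (median -0.20), and Asns was called in neither. The fitted difference between the genotypes did not pass (0.31 on the log2 scale, interval -0.20 to 0.83, FDR 0.584, edgeR).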

How the results depend on the processing

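Counts of called genes among the 42 that moved by over 1.5 times are given by setting, followed in parentheses by the percentages of all genes called higher and lower in the same fit, written higher/lower. Every gene of the 42 called in the main fits kept its sign under each alternative run. Further pathway genes and markers were not followed in this way. Without the replicate block (the set), which ignores the pairing of the dishes, 0 genes were called with HG + FFA and with ALL in any population, and 0 for glucose and fatty acids present against absent in WT VSMC, KO VSMC and EC and for angiotensin II and the catecholamine in WT VSMC, with at most 0.0758% of all genes called in a direction. DESeq2 called 6 with HG + FFA (1.15/0.862) and 1 with AII + NA (0.991/0.141) in WT VSMC, 3 with HG + FFA (1.04/0.663) and 3 with ALL (0.939/0.85) in KO VSMC, 8 between EC and WT VSMC in Control (12.6/8.43), and in the joint contrasts 5 for glucose and fatty acids in KO VSMC (2.6/2.51) and 2 for angiotensin II and the catecholamine in WT VSMC (4.47/2.18). Without a filter on low counts 3 were called with HG + FFA (0.962/0.75) and 1 with AII + NA (1.25/0.61) in WT VSMC, 5 with HG + FFA (0.815/1.03) and 4 with ALL (0.59/0.843) in KO VSMC, 1 with AII + NA in EC (0.0219/0.0985), 1 for the difference between genotypes with AII + NA (0.697/0.283) and 1 for departure from additivity in EC (0.178/0.0356). In the joint contrasts that setting called 14 for glucose and fatty acids in WT VSMC (2.52/2.68), 5 in KO VSMC (1.2/1.49), 20 in EC (1.66/2.58) and 3 for angiotensin II and the catecholamine in WT VSMC (2.06/1.95). With only the 2 groups compared 2 were called with HG + FFA in WT VSMC (0.817/0.62), 0 with HG + FFA in KO VSMC (0.0/0.0), 2 with HG + FFA in EC (0.785/0.798) and 1 with ALL in EC (0.431/0.573). With the animal as block 0 were called in EC with HG + FFA (0.49/0.426), 2 with ALL (0.373/0.408) and 6 in the joint contrast (1.7/2.37). Without EC sets 9, 11 and 13, 4 were called with HG + FFA (1.3/1.28), and 13 between EC and WT VSMC in Control. Without EC sets 15 and 16, 2 were called with HG + FFA (0.715/0.756) and 2 between EC and WT VSMC in Control (3.24/2.6).

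Under the study's size rule 0 were called with HG + FFA in EC (0.257/0.402), 0 in WT VSMC (0.183/0.101) and 0 in KO VSMC (0.234/0.057), 0 with ALL in EC (0.222/0.42), 1 in WT VSMC (1.22/0.97) and 0 in KO VSMC (0.217/0.0969). In the joint contrasts it called 0 for glucose and fatty acids in EC (0.268/0.478), 0 in WT VSMC (0.42/0.385), 1 in KO VSMC (0.376/0.342) and 0 for angiotensin II and the catecholamine in WT VSMC (0.5679/0.0769). Leaving out each set in turn gave 4 to 8 with HG + FFA in EC (0.684 to 2.003/0.748 to 2.19), 0 with HG + FFA in WT VSMC (0.0767 to 0.323/0.059 to 0.216), 2 to 4 with ALL in WT VSMC (1.65 to 3.22/1.24 to 2.52), 0 to 8 with HG + FFA (0.0 to 4.16/0.0 to 4.42) and 0 to 4 with ALL (0.0 to 0.565/0.0 to 0.476) in KO VSMC, and between EC and WT VSMC in Control 0 to 3 without single WT VSMC sets (1.82 to 2.48/1.91 to 2.68) and 2 to 12 without single EC sets (4.63 to 10.4/3.84 to 9.02). It gave 5 to 9 for glucose and fatty acids in WT VSMC (1.2 to 2.19/1.1 to 2.33) and 1 to 7 in KO VSMC (0.259 to 1.61/0.0901 to 1.69), and 0 to 4 for angiotensin II and the catecholamine in WT VSMC (0.287 to 4.05/0.0117 to 2.65). The cause of these shifts was not tested. Of the other values, 520 values of single genes stayed on their side of the threshold and 186 no longer passed it. Low genes such as Slc7a3, at 0.45 FPM per kb in WT VSMC Control, are limited by depth.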
